A study of Mus musculus with 2 samples.

Results

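The mouse Hox clusters carry 6 miRNA genes of the Mir10, Mir196 and Mir615 kinds, and their levels were read in small RNA libraries of newborn skeletal muscle. The members were Mir10a, Mir10b, Mir196a-1, Mir196a-2, Mir196b and Mir615, found by Ensembl gene identifier in GENCODE M21, which made 6 of 1973 listed miRNA genes. The tissue was skeletal muscle of mice of strain B6NCrl at postnatal day 0, and the labels name neither the muscle nor any treatment. The 2 libraries came from pup 1 (replicate 1) and pup 2 (replicate 2) of 1 litter, with sex not collected, and total RNA was the starting material. They form 1 group, so no condition was compared, and a p-value below compares 2 libraries, whose difference holds the pup, the dissection and the library preparation together. In bulk tissue, fewer cells of a type and less RNA per cell cannot be told apart.

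Hox genes encode homeodomain transcription factors that set position along the body axis, and they stand in 4 clusters (Hoxa to Hoxd) in which genes of the same number are paralogues. Genes near the end that holds paralogue 1 are expressed further towards the head, and genes near the paralogue 13 end further towards the tail. Mir10 genes lie beside paralogue 4 and Mir196 genes beside paralogue 9, and both families are old residents of these clusters. A miRNA guides Argonaute to messenger RNAs mainly through its seed, which is bases 2 to 8 of the mature strand. Several Hox messenger RNAs are known targets of miR-10 and miR-196, and Mir615 lies in the intron of Hoxc5.

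The mature sequences (RefSeq, GRCm38.p6), written 5′ to 3′ with the seed in capitals, show which members share a seed and which differ at a base. All 6 genes matched, with 12 arms in 11 different sequences.
miR-10a-5p: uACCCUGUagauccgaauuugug
miR-10b-5p: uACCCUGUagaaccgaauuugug
miR-196a-5p: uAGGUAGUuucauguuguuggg
miR-196b-5p: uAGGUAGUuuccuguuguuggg
miR-196a-1-3p: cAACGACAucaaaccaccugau
miR-196a-2-3p: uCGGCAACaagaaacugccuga
miR-615-5p: gGGGGUCCccggugcucggauc
miR-615-3p: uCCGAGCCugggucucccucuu
Counting from 1 at the 5′ end, miR-10a-5p and miR-10b-5p differed by U12A alone, and miR-196a-5p and miR-196b-5p by A12C alone. Both families therefore vary at position 12, outside the seed. Among 1738 mature sequences in the RefSeq table, the seed ACCCUGU was found in 2 genes, Mir10a and Mir10b, and the seed AGGUAGU in 3 genes, the Mir196 genes. Neither seed of Mir615 was found in another gene. The sequence of miR-196a-5p is made by both Mir196a-1 and Mir196a-2, so only their 3p arms, which differ at 17 of 22 bases, and the bases around the arms tell these loci apart.

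The place of each hairpin was taken from GENCODE M21 on the build of the counts (mm10). All 6 lie on the strand of their Hox cluster. Mir10b (chromosome 2, 74726070 to 74726137, plus strand) lies in introns of Hoxd3 and Hoxd4 transcripts, 1142 bases before the Hoxd4 coding sequence. Mir10a (chromosome 11, 96317165 to 96317274, plus strand) lies outside any annotated transcript, 1496 bases before the Hoxb4 coding sequence. The Mir10 genes thus have nearly the same place relative to paralogue 4 in different clusters. Mir196b (chromosome 6, 52230081 to 52230165, minus strand) lies between Hoxa10 and Hoxa9, in exons of non-coding Hoxa9 transcripts. Mir196a-2 (chromosome 15, 102973350 to 102973434, plus strand) lies between Hoxc10 and Hoxc9, in an intron of a long non-coding Hoxc5 transcript. Mir196a-1 (chromosome 11, 96265164 to 96265265, plus strand) lies outside any transcript, 6277 bases before the Hoxb9 coding sequence and 68938 bases after that of Hoxb13. Mir615 (chromosome 15, 103014910 to 103015001, plus strand) lies in the 692-base intron of Hoxc5, 374 bases after the first exon.

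**Figure D1:**
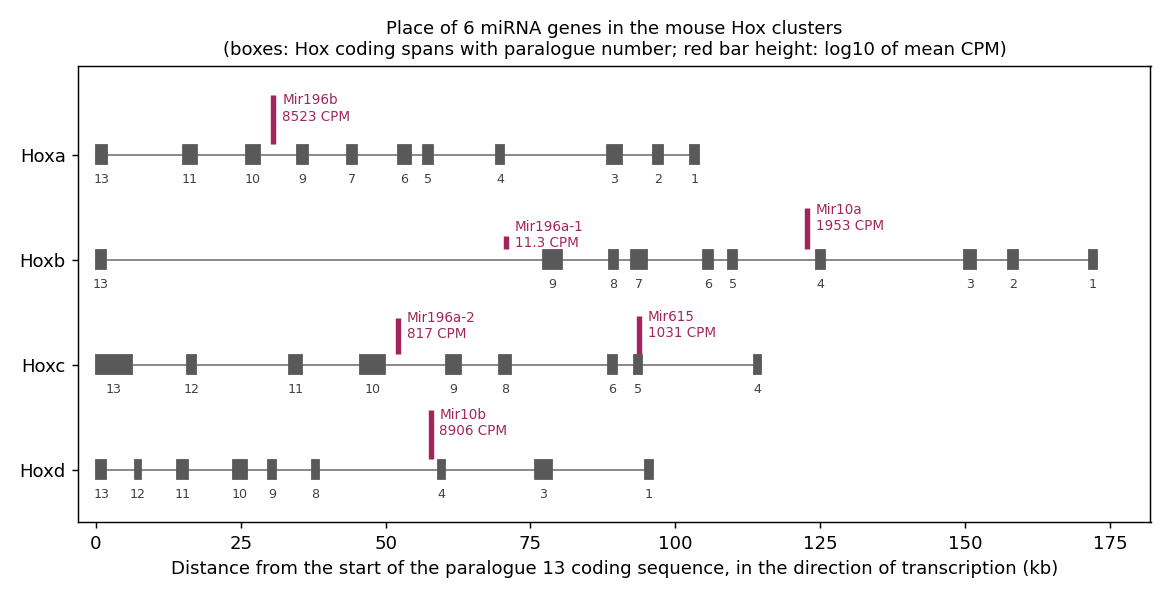
The 4 mouse Hox clusters are drawn to scale in kb from the start of the paralogue 13 coding sequence, with grey boxes for Hox coding spans (numbers are paralogues) and red bars for the miRNA genes, whose height is log10 of the mean CPM of 2 libraries. The highest bars, Mir10b at 8906 CPM and Mir196b at 8523 CPM, stand in different clusters and beside different paralogues.

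Reads on a gene's own strand were used, and CPM, the usual depth-scaled count, is relative to all own-strand gene counts, 3754895 in replicate 1 and 5133949 in replicate 2. A read of a small RNA library is about 1 mature strand, so CPM was not divided by gene length, and the table does not split a gene's count between its arms. Reads that map to several places were listed apart from the genes, 30.2% and 29.9% of all reads. The labelled tissue was checked against 9 skeletal muscle miRNA genes, of which 8 were in the table, none at 0, with a summed level of 81335 CPM in replicate 1 and 89353 CPM in replicate 2. Nearly all of that was Mir206 (79447 and 87198 CPM), while Mir1a-1 had 24 and 46 counts and Mir133a-1 had 20 and 32. The muscle list also holds Mir1a-2 and Mir133a-2, and reads that map to several places are not in these counts. The part of such reads in the low counts was not tested.

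All 6 members had at least 10 counts in both libraries, whereas 311 of the 1973 listed genes did. Together they held 2.28% of all gene counts in pup 1, with an exact Clopper-Pearson 95% interval from 2.27 to 2.30, and 1.96% in pup 2, from 1.95 to 1.98, and these intervals cover counting error only. Most of that came from a pair of genes, since Mir10b and Mir196b held 40.7% and 41.4% of the members' counts in replicate 1 and 43.4% and 38.7% in replicate 2.

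Mir10b, the Mir10 gene of the Hoxd cluster, had 34876 counts in replicate 1 and 43762 in replicate 2, levels of 9288 and 8524 CPM with a mean of 8906 ± 540 CPM (SD, n = 2). It ranked 24 by mean CPM among all listed genes, between Mir130a (9037 ± 1060 CPM) and Mir541 (8743 ± 1054 CPM), and its range overlapped theirs. Mir10a, the Mir10 gene of the Hoxb cluster, had 8041 and 9056 counts, levels of 2141 and 1764 CPM with a mean of 1953 ± 267 CPM. It ranked 62, between Mir151 (2191 ± 158 CPM) and Mir423 (1896 ± 138 CPM). Within the family, Mir10b was 4.34-fold above Mir10a in replicate 1 and 4.83-fold above it in replicate 2, a mean log2 ratio of 2.19 ± 0.11 (SD, n = 2). The libraries' ranges for these genes did not overlap, and the ratio was many times its spread.

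Mir196b, the Mir196 gene of the Hoxa cluster, had 35483 and 39001 counts, levels of 9450 and 7597 CPM with a mean of 8523 ± 1310 CPM. It ranked 26, between Mir541 and Mir483 (8193 ± 1711 CPM), an intronic miRNA gene of Igf2. Mir196a-2 of the Hoxc cluster had 3511 and 3588 counts, levels of 935 and 699 CPM with a mean of 817 ± 167 CPM, and ranked 98, between Mir148a (821 ± 342 CPM) and Mir130b (804 ± 115 CPM). Mir196a-1 of the Hoxb cluster had 53 and 44 counts, levels of 14.1 and 8.57 CPM with a mean of 11.3 ± 3.92 CPM, and ranked 253, between Mir218-2 (11.5 ± 4.76 CPM) and Mir193b (49 and 46 counts). Mir196b was thus 9.96-fold above the sum of the Mir196a loci in replicate 1 and 10.7-fold above it in replicate 2, a mean log2 ratio of 3.37 ± 0.077. Reads that map to several places are not in that ratio, miR-196a-5p has 2 loci and miR-196b-5p has 1 in the RefSeq table, and the part of such reads was not tested.

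Mir615, the intronic gene of Hoxc5, had 3774 and 5427 counts, levels of 1005 and 1057 CPM with a mean of 1031 ± 36.8 CPM. Its SD was 3.57% of its mean, and it ranked 88, between Mir425 (1039 ± 202 CPM) and Mir93 (1029 ± 336 CPM). Mir615 and Mir196a-2, which share the Hoxc cluster, stood next to each other in the order of members. Mir615 was 1.07-fold higher in replicate 1 and 1.51-fold higher in replicate 2, and the mean log2 difference of 0.35 ± 0.35 was about as large as its spread.

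**Figure D2:**
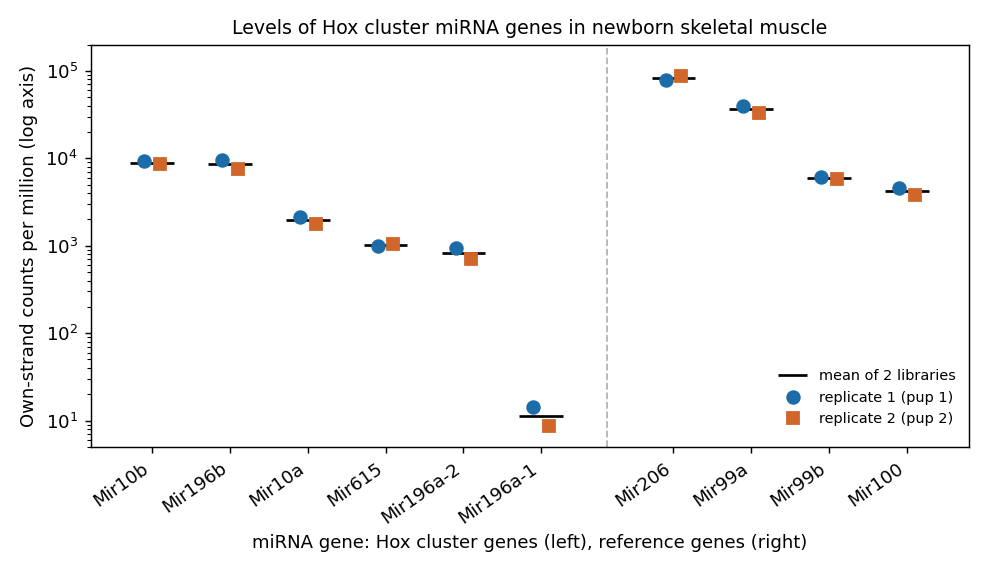
The 6 Hox cluster miRNA genes (left) and 4 reference genes (right) are plotted by own-strand CPM on a log axis, with circles for replicate 1, squares for replicate 2 and a line for their mean. Mir10b and Mir196b overlap at the top, Mir10a, Mir615 and Mir196a-2 follow, and Mir196a-1 lies far below at 14.1 and 8.57 CPM.

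The members' order by mean CPM was Mir10b, Mir196b, Mir10a, Mir615, Mir196a-2 and Mir196a-1. Mir10b and Mir196b could not be ordered, since Mir196b was higher in replicate 1 and Mir10b in replicate 2, with a mean log2 difference of 0.071 ± 0.135. Mir196b exceeded Mir10a by 4.41-fold and 4.31-fold, and Mir10a exceeded Mir615 by 2.13-fold and 1.67-fold. The largest step was from Mir196a-2 to Mir196a-1, 66.2-fold in replicate 1 and 81.5-fold in replicate 2.

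That step was set beside other pairs of miRNA genes that share an identical arm. No pair shared both arms, and pairs were taken whichever arm was shared, as with Mirlet7a-1 and Mirlet7c-2. By the RefSeq sequences, 21 pairs of listed genes shared an arm found at no further gene and had at least 10 counts over the pair in each library. The median log2 ratio of the higher over the lower locus was 2.56 over these pairs, with 0.5 added to each count, and some loci belong to more than 1 pair. The Mir196a pair had 6.18 and ranked 2 of 21, below Mir194-2 over Mir194-1 (6.50), where the lower locus had 1 count in each library. Of the 13 pairs with at least 10 counts at the lower locus in both libraries, the Mir196a pair was the most uneven, followed by Mir181b-2 over Mir181b-1 (5.58), and the median was 0.65. At the even end stood Mirlet7c-1 and Mirlet7c-2, with 413 and 413 counts in replicate 1 and 411 and 344 in replicate 2. The pairs named here were picked with their values known. Genes with an arm identical to that of another gene had a median of 1.09 CPM over 87 listed genes, and among them Mir196a-2 ranked 4 and Mir196a-1 ranked 33. Genes without an identical arm had a median of 0.292 CPM over 829 genes. With at least 10 counts in both libraries, the medians were 64.7 CPM over 39 genes with an identical arm and 285 CPM over 246 without. A read of the shared arm alone matches both loci of a pair, and reads that map to several places are not in these counts. The Mir196a step thus compares reads that map to 1 place, not all miR-196a made by each locus. Which arm the counts at Mir196a-2 came from is not split in the table, and the part of multimapping reads in the step was not tested.

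**Figure D3:**
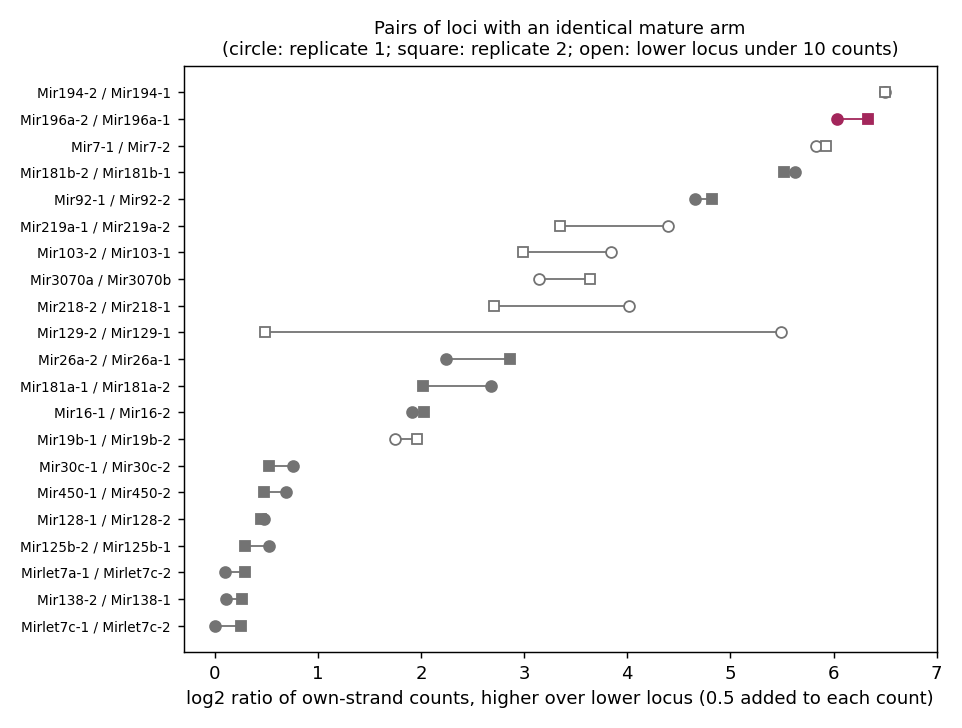
Each line is a pair of miRNA genes with an identical mature arm, placed by the log2 ratio of own-strand counts at the higher over the lower locus (0.5 added), with a circle for replicate 1, a square for replicate 2 and open marks where the lower locus had under 10 counts in a library. The Mir196a pair (red) lies at 6.04 and 6.33, to the right of all other pairs with filled marks.

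Mir99a, Mir99b and Mir100 are relatives of Mir10 outside the Hox clusters, and their arms are shown because they share the middle of the strand but not the seed.
miR-99a-5p: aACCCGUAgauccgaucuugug
miR-100-5p: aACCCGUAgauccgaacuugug
Bases 7 to 17 of miR-10a-5p, guagauccgaa, recur from base 6 in miR-100-5p. The longest stretch shared by miR-10a-5p and miR-99a-5p was 10 bases. The relatives had 50388 CPM together in replicate 1 and 42899 CPM in replicate 2, against 11430 and 10288 CPM for Mir10a plus Mir10b, and the ranges did not overlap. Mir99a had 36446 ± 4535 CPM and Mir99b 6007 ± 187 CPM, on either side of Mir10b. Mir100 had 4190 ± 574 CPM, also below Mir10b. For scale, the muscle gene Mir206, at the top of all listed genes, had 83323 ± 5480 CPM.

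Levels were then set beside Hox position. By cluster, the sum was 9450 and 7597 CPM for Hoxa (Mir196b), 2156 and 1773 CPM for Hoxb (Mir10a and Mir196a-1), 1940 and 1756 CPM for Hoxc (Mir196a-2 and Mir615) and 9288 and 8524 CPM for Hoxd (Mir10b). The Hoxa and Hoxd sums overlapped each other, as did those of Hoxb and Hoxc, while no value of the first pair overlapped the second. By side of the cluster, the genes beside paralogues 4 and 5 (Mir10a, Mir10b and Mir615) held 54.5% and 57.7% of the members' counts, and the Mir196 genes beside paralogue 9 held 45.5% and 42.3%. In CPM these sums were 12435 and 11345 against 10399 and 8304, which did not overlap. Reads that map to several places are in none of these sums. In the RefSeq table miR-196a-5p has 2 loci, while each arm of Mir10a, Mir10b, Mir196b and Mir615 has 1. The Mir196a levels in the Hoxb, Hoxc and paralogue 9 sums lack such reads, and their part was not tested. Along the cluster, with 0% at the paralogue 13 end, the members stood at 29.5% (Mir196b), 41.0% (Mir196a-1), 45.5% (Mir196a-2), 60.2% (Mir10b), 71.1% (Mir10a) and 81.7% (Mir615). The levels of the 6 genes in that order were 8523, 11.3, 817, 8906, 1953 and 1031 CPM, so no steady rise or fall with position was seen. Hox messenger RNAs were not measured in these libraries.

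The libraries were compared gene by gene by a binomial test, exact and two-sided, on library sizes scaled by TMM, edgeR's trimmed mean of ratios, adjusted by Benjamini-Hochberg over 373 genes with at least 10 counts. This test asks only whether 2 libraries differ beyond counting error. Of the 6 members, 3 were lower in replicate 2 beyond counting error (23.3% of all tested genes were) and 1 was higher (25.7%), at an adjusted p threshold of 0.05. With the added minimum of 2-fold, 0 of 6 were called in either direction, beside 4.56% of tested genes higher in replicate 1 and 0.536% higher in replicate 2. The members' median log2 ratio of replicate 2 over replicate 1 was -0.17, beside 0.0059 over all tested genes. Their ratios ran from -0.59 to 0.20, and those of all tested genes, the members included, from -5.42 to 1.75.

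Mir196b had a log2 ratio of -0.18 (adjusted p = 4.66e-66 by exact binomial test), the smallest adjusted p among members, for a 1.14-fold difference. Mir196a-2 had -0.29 (adjusted p = 1.88e-16) and Mir10a -0.15 (adjusted p = 8.34e-11). Mir615 was higher in replicate 2, at 0.20 (adjusted p = 7.58e-11), so the Hoxc genes moved in opposite directions between the pups. Mir10b differed by 0.0078 (adjusted p = 0.586) and Mir196a-1 by -0.59 (adjusted p = 0.0981), which did not pass. Over the tested genes edgeR's biological coefficient of variation between the libraries was 0.319. The binomial test holds none of that spread, so these p-values say nothing of mice in general. Scaling by total counts in place of TMM moved the median of all tested genes by -0.13, and Mir10b then had -0.12 and was lower in replicate 2 (adjusted p = 4.18e-32). With that scaling 118 tested genes were higher in replicate 1 and 64 in replicate 2 beyond counting error, beside 87 and 96 with TMM, and 5 of 6 members were lower in replicate 2, Mir196a-1 among them (adjusted p = 0.0369).

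**Figure D4:**
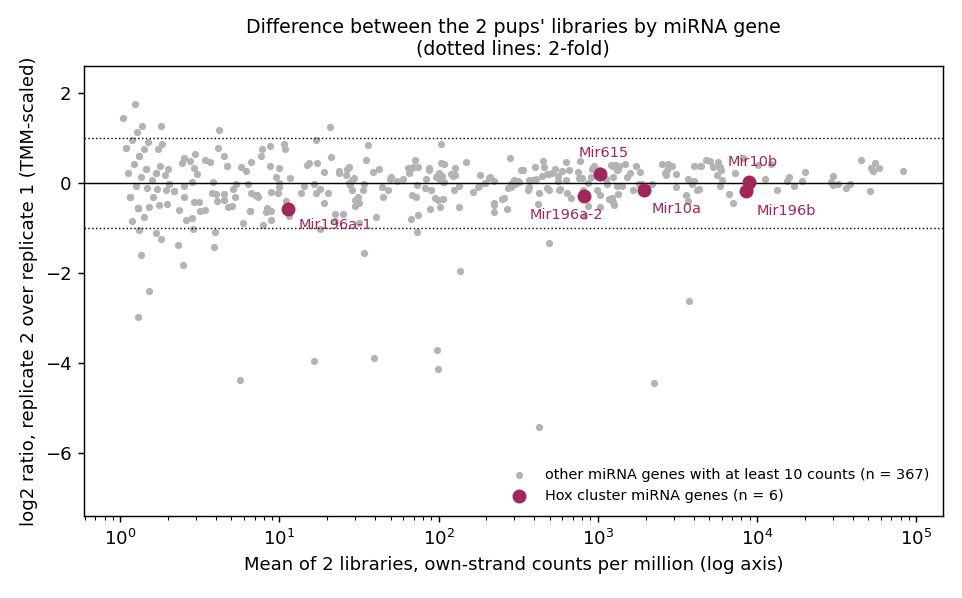
Each point is a miRNA gene with at least 10 counts, by mean CPM on a log axis and by log2 ratio of replicate 2 over replicate 1 after TMM scaling, with dotted lines at 2-fold. The 6 Hox cluster genes (red) lie between -0.59 and 0.20, inside the dotted lines.

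Markers of other tissues were summed in each library, beside 22834 and 19649 CPM for the 6 members. The 7 epithelial and skin genes, none at 0, summed to 5688 CPM in replicate 1 and 230 CPM in replicate 2, and the 2 cartilage genes to 7917 and 1952 CPM. Most of the cartilage difference was Mir140 (24555 and 4959 counts), while Mir455 had 5172 and 5061 counts. With TMM scaling both cartilage genes were lower in replicate 2, at log2 ratios (replicate 2 over 1) of -2.63 for Mir140 and -0.35 for Mir455. The 6 fibroblast and smooth muscle genes summed to 45400 and 41891 CPM, and the endothelial gene had 40785 and 36558 CPM. Red blood cell genes summed to 416 and 299 CPM and white blood cell genes to 585 and 400 CPM, none at 0. The red blood cell genes went opposite ways, with TMM-scaled log2 ratios (replicate 2 over 1) of -0.57 for Mir451a and 0.34 for Mir144. In the nervous system list 4 of 10 measured genes were at 0 in both libraries, and the sum was 1342 and 1577 CPM. Nearly all of that sum was Mir128-1, Mir128-2 and Mir338 (means of 629, 456 and 368 CPM). The genes at 0 were Mir124a-1, Mir124a-2, Mir124a-3 and Mir9-2, and Mir9-3 had 2 and 1 counts. The part of these tissues in the members' levels was not tested.

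A target site shows how closely a Mir196 product can match a Hox messenger RNA. The 5p arms of the Mir10 and Mir196 genes were slid without gaps along the annotated 3′ untranslated regions of 20898 protein-coding genes (GENCODE M21), and complementary bases were counted without G:U pairs. For miR-196a-5p, Hoxb8 had 21 of 22 bases complementary, and no other gene reached 18. Its site is printed because it lies in the Hoxb cluster, which also holds Mir196a-1 (mm10, chr11:96284888-96284909, plus strand), with the non-complementary base in capitals.
Hoxb8 site: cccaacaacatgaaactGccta
The exception was U5G, with the arm's base first, its position from the arm's 5′ end and then the site's base. This exception lies in the seed and is a G:U pair, which was not counted as complementary. For miR-196b-5p the same site had 20 of 22 complementary bases, with C12T as the added exception, so at position 12, where the Mir196 arms differ, the site was complementary to miR-196a-5p and not to miR-196b-5p. No gene had more than 18 of 23 complementary bases to miR-10a-5p or miR-10b-5p, and no Hox gene reached 17. Cleavage of Hoxb8 by miR-196 is textbook knowledge, and these libraries hold no measurement of it.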

How the data were processed

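Small RNA was sequenced by the authors in 2 libraries of newborn mouse skeletal muscle. What the authors deposited are raw read counts of miRNA genes (build mm10, annotation M4, per the text deposited with each library), in 3 unnamed columns. Column 1 of the counts was the sum of the others in all 1973 genes, and the others were taken, by layout and totals, as own strand and opposite strand. The aligner, counter and their settings are not given in the sources used here. The 4 lines of reads outside genes stayed out of library sizes.

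Names and places came from GENCODE M21 (1894 identifiers matched). CPM, exact binomial tests and Clopper-Pearson intervals were computed in Python 3.11.15 with scipy 1.17.1, and TMM factors (1.05 and 0.955) with edgeR 4.0.16 in R 4.3.3, with 0.5 added to counts in log2 ratios. The test was checked on simulated counts that held counting error alone. That is the spread the test assumes, so added spread between pups was not covered by the check. Besides the 6 members, the named genes were their neighbours by mean CPM, Mir99a, Mir99b, Mir100 and Mir206, and likeness of pattern was not computed over 2 libraries. Members and lists were chosen with earlier results of these data known. A count of 0 allows up to 3 counts, 0.799 CPM and 0.584 CPM. Alternatives tried were both strands, other denominators, DESeq2 1.42.0 size factors, total counts, other minimum counts and pseudocounts, and each library alone.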

Additional observations from a re-analysis of the deposited data

How the results depend on the processing

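Levels depend on the denominator. Over all reads, mapped or not, mean levels were 1018 CPM for Mir10a, 4642 for Mir10b, 5.92 for Mir196a-1, 426 for Mir196a-2, 4445 for Mir196b and 537 for Mir615, and the summed share was 1.11%. Counting both strands gave 7956 CPM for Mir10b, 921 for Mir615 and a share of 1.90%, and leaving Mir206 out of the denominator gave 9714 and 1125 CPM. The log2 ratio of Mir10b between the libraries changed sign, from 0.0078 with TMM to -0.12 under total-count scaling. Genes at least 2-fold higher in replicate 2 were 1, in place of 2, under total-count scaling and with a minimum of 50 counts. The other log2 ratios kept their direction, and 0 members passed 2-fold in any setting. With each library alone, the level of a gene or the ratio of Mir10b over Mir196b (-0.025 to 0.166) takes that library's value, which with 2 libraries always lies within 1 SD of the mean. No paired analysis was possible because the labels give 1 group. Low depth affects Mir196a-1, with 53 and 44 counts.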
